A study of Mus musculus with 12 samples.

Results

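The histone genes described here were all probe sets of a mouse expression array whose annotated symbol began with one of the older names Hist1h, Hist2h, Hist3h or Hist4h, or with the current names H1f, H2ac, H2bc, H3c or H4c and a digit. Exactly 1 symbol was given for 30 such probe sets, standing for 29 genes, of 23521 probe sets with 1 symbol in all. They comprised 8 probe sets for the linker histone H1, 7 for H2A, 8 for H2B and 7 for H4, and 0 for H3. A further 38 probe sets carried between 2 and 13 symbols each and are given apart. The values of 3 of these repeated those of another row exactly, so 35 were counted. Not all members were replication-dependent histone genes. Of the 30, 5 are known from germ cells (H1f6, H1f7, H1f8, H2ac1 and H2bc1) and 1, H1f10, is a replacement linker histone. The other 24 were counted as replication-dependent by exclusion, H2bc21 (Hist2h2be) among them. Whether each of them depends on replication was not tested.

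The RNA came from regulatory T cells (Treg) that were flow-sorted out of spleens of DEREG mice with allergic airways disease raised by ovalbumin. DEREG mice express a diphtheria toxin receptor joined to green fluorescent protein under the Foxp3 promoter, and diphtheria toxin (DTx) therefore depletes their Foxp3+ cells. Each of 3 groups had 4 biological replicates on 1 array each, 12 arrays in all. For iTreg, the mice had received 40 ng/g DTx as well as 2 g/kg intravenous immunoglobulin (IVIg), a pooled human IgG preparation, and the labels name the cells as induced by IVIg. For e_iTreg, the mice had received the same IVIg dose without DTx, and the cells are named as endogenous and induced Treg mixed. For eTreg, the mice had received 2 g/kg human serum albumin (HSA) without DTx, and the cells are named as endogenous. Strain, sensitization and challenge were common to the 3 groups. One growth protocol serves every sample and has DTx precede either infusion, while the series design limits DTx to iTreg mice; the groups here follow the design. The step from eTreg to iTreg changes both DTx and IVIg, and mice with DTx plus HSA were not analysed here. The RNA input was 2 ng per sample, amplified in 2 rounds.

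Dividing cells package newly made DNA with core histones, an octamer of H2A, H2B, H3 and H4, while linker histone H1 binds the DNA between nucleosomes. The genes for these proteins lie in clusters, have no introns, and are transcribed mainly in S phase. Their messages end in a conserved stem-loop in place of a poly(A) tail, and the stem-loop binding protein Slbp carries them through processing and translation until they are degraded at the end of S phase. T cells that leave rest and divide are known to raise them.

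Promoter sequences are printed for 6 genes the results turn on, credited to RefSeq with the build GRCm38.p6. H2bc12 and H2ac12 are neighbours read in opposite directions, with 178 bases between their starts, and both rose. H2bc18, H1f5 and H4c9 also rose, and H2bc14 is shown because it holds the octamer and CCAAT as H2bc12 does and did not pass the test. Each line holds the 120 bases before the annotated start, 5′ to 3′, and ends at the base before the start. Capitals mark 3 motifs on either strand: the octamer ATTTGCAT, CCAAT and TATAAA. Where a motif lies on the other strand, its reverse complement is in capitals. H2bc12 is at chr13:22035701-22035820 on the plus strand, H2ac12 at chr13:22035644-22035763 on the minus strand and H2bc18 at chr3:96269580-96269699 on the plus strand. H2bc14 is at chr13:21721924-21722043 on the plus strand, H1f5 at chr13:21780626-21780745 on the minus strand and H4c9 at chr13:22041363-22041482 on the minus strand.
H2bc12: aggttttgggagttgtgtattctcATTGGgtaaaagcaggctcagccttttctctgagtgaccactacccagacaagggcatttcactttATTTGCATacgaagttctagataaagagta
H2ac12: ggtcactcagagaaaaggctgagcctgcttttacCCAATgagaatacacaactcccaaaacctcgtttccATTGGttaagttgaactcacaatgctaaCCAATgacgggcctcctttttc
H2bc18: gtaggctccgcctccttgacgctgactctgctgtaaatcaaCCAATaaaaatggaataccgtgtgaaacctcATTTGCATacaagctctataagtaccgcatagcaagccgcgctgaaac
H2bc14: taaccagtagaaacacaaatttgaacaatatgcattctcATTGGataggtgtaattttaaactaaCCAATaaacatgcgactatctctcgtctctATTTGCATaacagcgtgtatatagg
H1f5: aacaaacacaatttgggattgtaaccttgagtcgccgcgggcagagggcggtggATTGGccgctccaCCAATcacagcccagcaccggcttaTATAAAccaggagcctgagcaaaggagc
H4c9: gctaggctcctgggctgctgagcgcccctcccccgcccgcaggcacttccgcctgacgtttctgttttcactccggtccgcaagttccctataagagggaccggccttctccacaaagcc
Counted back from the start, H2bc12 holds the octamer from -30 and CCAAT from -96, H2bc18 the octamer from -48 and CCAAT from -79, and H2bc14 the octamer from -25 and CCAAT matches before it. H1f5 holds 2 CCAAT matches and TATAAA from -28. H2ac12 holds CCAAT matches and no octamer within this stretch, part of which it shares with H2bc12, and H4c9 holds none of the 3 motifs within it.

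Pairwise correlations of the 12 arrays ran from 0.966 to 0.993. T cell and Treg markers, Foxp3 among them, were bright on every array: their mean log2 value per array lay between 11.74 and 11.93, and 0 of 6 passed the test between groups. Of the probe sets listed as markers of other cells, 0 of 11 B cell, 1 of 8 plasma cell (Prdm1), 2 of 12 myeloid (Itgam and Cst3), 0 of 8 NK and CD8 and 0 of 5 erythroid probe sets rose in iTreg against eTreg. Whether their RNA came from other cells or from the Treg themselves was not tested. All 8 plasma cell markers had a positive difference (median 0.71, 6 of 8 at an unadjusted p below 0.05), as had all 12 myeloid markers (median 0.50, 7 of 12). Their part in the histone differences was not tested beyond the marker covariate given below. Mean B cell marker levels ran from 7.14 to 7.6 in iTreg, 6.28 to 8.01 in e_iTreg and 6.22 to 8.11 in eTreg, and the lowest 3 arrays were eTreg 3, e_iTreg 4 and eTreg 4. Mean plasma cell marker levels ran from 7.54 to 9.37 in iTreg, 7.10 to 7.545 in e_iTreg and 7.0 to 7.41 in eTreg, with iTreg 4 the highest. Mean myeloid marker levels ran from 7.01 to 8.05 in iTreg, 6.32 to 7.0 in e_iTreg and 6.39 to 7.01 in eTreg. The X-linked Xist and Y-linked genes were both raised on 9 arrays, while Y-linked genes were low on iTreg 4 (mean 4.84) and eTreg 3 (4.94) and Xist was low on e_iTreg 4 (5.82). Counts without these arrays stand beside the results.

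Of the 30 probe sets 13 rose and 1 fell in iTreg against eTreg in limma's test (Benjamini-Hochberg adjusted p below 0.05 over 23521 probe sets), where 5.36% of all probe sets rose and 4.63% fell, 9.99% in either direction. At an unadjusted p below 0.05, 16 of 30 passed, beside 21.7% of all probe sets. Their median log2 difference was 0.39, beside -0.01 over all probe sets. Among the 24 replication-dependent probe sets the median was 0.94 and 20 had a positive difference. All 4 iTreg arrays lay above all 4 eTreg arrays for 12 of the 30 and below them for 0, which was the case for 6.9% and 7.82% of all probe sets. In bulk RNA, fewer or more cells in S phase and less or more histone RNA per cell cannot be told apart.

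Against e_iTreg, iTreg again had 13 higher and 1 lower probe set of 30, where 6.49% of all probe sets rose and 4.75% fell, 11.2% in either direction. At an unadjusted p below 0.05, 17 of 30 passed, beside 26.3%. The median difference was 0.48, beside -0.07 over all probe sets, and 0.99 among the 24 replication-dependent ones. All iTreg arrays lay above all e_iTreg arrays for 14 of 30 and below for 1, beside 7.57% and 9% of all probe sets. These 2 contrasts share the iTreg arrays, so their values are given side by side. Between e_iTreg and eTreg limma called 0 of 30, as it called 0 of the 23521. At an unadjusted p below 0.05, 0 of 30 passed in that contrast, beside 7.01% of all probe sets, and the arrays stood apart for 0 of 30, beside 2.63% with e_iTreg higher and 1.66% with e_iTreg lower. The median difference of the 30 was -0.02 and the smallest adjusted p among them 0.704.

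The counts against eTreg fell when the 3 arrays low in B cell markers were left out. Of the eTreg arrays, only eTreg 1 and eTreg 2 then remained. The share of all probe sets that rose fell as well, from 5.36% to 0.897%. Fewer arrays and B cell content cannot be told apart in this drop. Without eTreg 3, eTreg 4 and e_iTreg 4, 2 of 30 rose against eTreg (H1f5 and the brighter H2ac21 probe set), where 0.897% of all probe sets rose, and 10 of 30 rose against e_iTreg, where 3.75% rose. The mean difference of the 24 replication-dependent probe sets was then 0.67 against eTreg and 0.87 against e_iTreg, beside 0.99 and 1.03 with all arrays. With the mean of all markers listed for other cells as a covariate, Prdm1 included, 6 rose against eTreg, where 2.34% of all probe sets rose, and 9 against e_iTreg, where 4.53% rose. This covariate may also carry RNA of the Treg themselves. Without the 3 arrays with the signal of 1 sex 12 rose against eTreg (2.93% of all probe sets) and 9 against e_iTreg (3.18%). The part of other cell types in these differences was otherwise not tested.

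**Figure D1:**
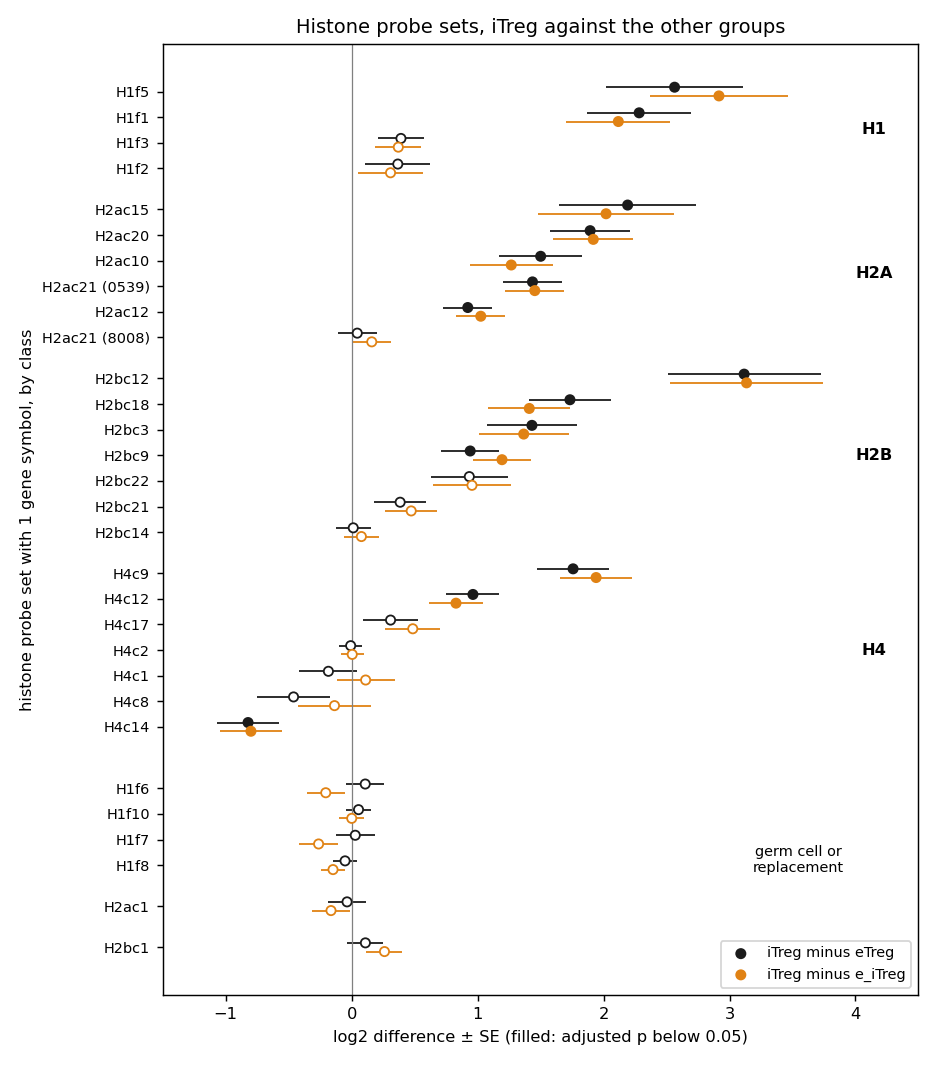
Log2 difference (x axis) of each of the 30 histone probe sets, iTreg minus eTreg in black and iTreg minus e_iTreg in orange, with bars of ± 1 SE (n = 4 arrays per group); filled points passed limma's test at adjusted p below 0.05, and the 2 probe sets of H2ac21 are told apart by the last digits of their numbers. H2bc12 lies farthest right at 3.12 and 3.14 and H4c14 farthest left at -0.82 and -0.80.

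Among linker histones, 2 of the 4 replication-dependent genes rose. H1f5 (Hist1h1b), a somatic subtype, was at 7.91, 7.81, 7.94 and 6.94 in iTreg, 4.70, 6.25, 4.74 and 3.23 in e_iTreg and 6.25, 5.08, 5.31 and 3.69 in eTreg (log2 values of arrays 1 to 4). Every iTreg array was above every other array, with iTreg 4 the lowest of its group. The log2 difference was 2.56 ± 0.54 (SE) against eTreg (5.91-fold, limma adjusted p = 0.00776) and 2.92 ± 0.54 against e_iTreg (adjusted p = 0.00395).

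H1f1 (Hist1h1a), another somatic subtype, was at 8.03, 8.24, 8.08 and 7.14 in iTreg, 6.16, 6.57, 4.99 and 5.29 in e_iTreg and 6.85, 5.67, 5.04 and 4.80 in eTreg. All iTreg arrays were again above the rest. The differences were 2.28 ± 0.41 against eTreg (4.87-fold, limma adjusted p = 0.00325) and 2.12 ± 0.41 against e_iTreg (adjusted p = 0.00489). The other H1 genes did not pass. H1f2 (Hist1h1c), the brightest H1 probe set, averaged 8.02 ± 0.48 in iTreg, 7.71 ± 0.40 in e_iTreg and 7.65 ± 0.46 in eTreg (SD, n = 4 each). Its arrays overlapped, and its difference against eTreg was 0.37, with a 95% interval from -0.18 to 0.92. H1f3 (Hist1h1d) averaged 5.53 ± 0.23 in iTreg, 5.16 ± 0.38 in e_iTreg and 5.14 ± 0.27 in eTreg, and its difference against eTreg was 0.39, with an interval from 0.00 to 0.78 (limma adjusted p = 0.227).

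Of the 6 H2A probe sets of replication-dependent genes, 5 rose in both contrasts, with a median log2 difference of 1.47 against eTreg and 1.36 against e_iTreg. H2A pairs with H2B in the dimers that flank the H3 and H4 core of a nucleosome. H2ac20 (Hist2h2ac) was at 8.76, 8.93, 9.4 and 8.42 in iTreg, 6.97, 7.67, 6.41 and 6.79 in e_iTreg and 7.99, 6.84, 6.73 and 6.38 in eTreg. No other array reached the lowest iTreg array, and eTreg 1 came closest. The difference was 1.89 ± 0.32 against eTreg (3.71-fold, limma adjusted p = 0.00228) and 1.92 ± 0.32 against e_iTreg (adjusted p = 0.00211).

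The largest H2A difference among probe sets with 1 symbol was that of H2ac15 (Hist1h2ak), with 8.47, 8.76, 8.95 and 8.42 in iTreg, 7.01, 7.87, 6.20 and 5.43 in e_iTreg and 8.10, 6.67, 6.07 and 4.99 in eTreg. The iTreg arrays lay closer together (SD 0.25) than the e_iTreg arrays (SD 1.05) and the eTreg arrays (SD 1.30), and did not overlap with them. It rose by 2.19 ± 0.54 against eTreg (limma adjusted p = 0.0181) and by 2.02 ± 0.54 against e_iTreg (adjusted p = 0.0267). Its call was lost in 7 of 27 alternative settings against eTreg and in 9 of 27 against e_iTreg. H2ac10 (Hist1h2af), the brightest of these H2A probe sets, was at 12.31, 12.45, 12.36 and 11.95 in iTreg, 11.15, 11.84, 10.61 and 10.41 in e_iTreg and 11.81, 10.60, 10.59 and 10.06 in eTreg. The iTreg arrays were again above the rest, with eTreg 1 and e_iTreg 2 nearest. It rose by 1.5 ± 0.33 against eTreg and 1.27 ± 0.33 against e_iTreg (limma adjusted p = 0.00931 and 0.0226), and these calls were lost in 2 and 10 of 27 settings.

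H2ac12 (Hist1h2ah), the neighbour of H2bc12, was dim, at 4.28, 3.65, 3.79 and 3.32 in iTreg, 2.60, 2.90, 2.75 and 2.69 in e_iTreg and 3.30, 2.70, 2.40 and 2.96 in eTreg. The lowest iTreg array was just above the highest eTreg array. It rose by 0.92 ± 0.20 against eTreg (limma adjusted p = 0.00776) and 1.03 ± 0.20 against e_iTreg (adjusted p = 0.00441). The 2 probe sets of H2ac21 (Hist2h2ab) disagreed. Probe set 17400539 was at 7.42, 7.81, 7.99 and 6.88 in iTreg, 6.17, 6.49, 5.89 and 5.72 in e_iTreg and 6.42, 6.22, 6.13 and 5.59 in eTreg, with iTreg above all other arrays. It rose by 1.44 ± 0.23 against eTreg and 1.45 ± 0.23 against e_iTreg (limma adjusted p = 0.00197 and 0.00182) and kept both calls in all 27 alternative settings run. Probe set 17408008 averaged 4.66 ± 0.14 in iTreg, 4.5 ± 0.31 in e_iTreg and 4.62 ± 0.26 in eTreg, a difference of 0.04 against eTreg with a 95% interval from -0.29 to 0.37.

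**Figure D2:**
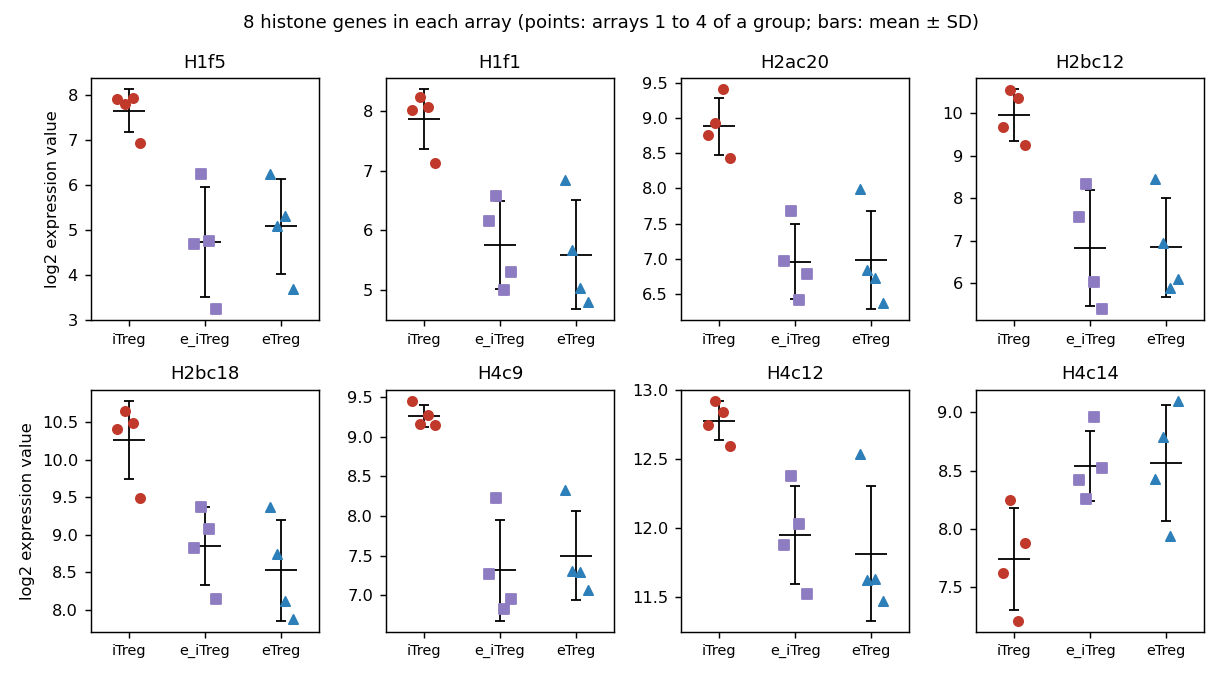
Log2 expression value (y axis, 1 scale per panel) of 8 histone genes on each array, with points for the 4 arrays of iTreg, e_iTreg and eTreg and bars for the mean ± SD (n = 4). In every panel but that of H4c14 all iTreg points are above the other groups; for H4c14 iTreg lies at 7.62, 8.25, 7.21 and 7.88.

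H2B gave the largest single difference. H2bc12 (Hist1h2bk) was at 9.68, 10.56, 10.35 and 9.25 in iTreg, 7.56, 8.35, 6.02 and 5.39 in e_iTreg and 8.46, 6.95, 5.89 and 6.09 in eTreg. All iTreg arrays were higher than the rest, and the other groups spread widely (SD 1.36 in e_iTreg and 1.17 in eTreg, beside 0.60 in iTreg). The difference was 3.12 ± 0.61 against eTreg (8.67-fold, 95% interval 1.82 to 4.41 in log2, limma adjusted p = 0.00485) and 3.14 ± 0.61 against e_iTreg (adjusted p = 0.00473). H2bc18 (Hist2h2bb) was at 10.41, 10.65, 10.49 and 9.49 in iTreg, 8.82, 9.36, 9.07 and 8.14 in e_iTreg and 9.37, 8.75, 8.12 and 7.87 in eTreg. Here iTreg 4 was only a little above eTreg 1 and e_iTreg 2. It rose by 1.73 ± 0.33 against eTreg (3.32-fold, limma adjusted p = 0.00394) and 1.41 ± 0.33 against e_iTreg (adjusted p = 0.0126).

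H2bc3 (Hist1h2bb), the brightest of these H2B probe sets, was at 12.84, 12.65, 12.89 and 12.35 in iTreg, 11.61, 12.27, 11.05 and 10.32 in e_iTreg and 12.22, 11.12, 10.95 and 10.70 in eTreg. The gap between iTreg 4 and e_iTreg 2 was small. It rose by 1.43 ± 0.36 against eTreg and 1.37 ± 0.36 against e_iTreg (limma adjusted p = 0.0187 and 0.0232), and each call was lost in 9 of 27 settings. H2bc9 (Hist1h2bh) was at 6.17, 5.79, 6.05 and 5.0 in iTreg, 4.36, 4.5, 4.85 and 4.52 in e_iTreg and 4.71, 5.39, 4.58 and 4.56 in eTreg. The lowest iTreg array, iTreg 4, was below eTreg 2 and above all e_iTreg arrays. It rose by 0.94 ± 0.23 against eTreg and 1.19 ± 0.23 against e_iTreg (limma adjusted p = 0.0174 and 0.00469), and the call against eTreg was lost in 7 of 25 settings.

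Of the 7 H2B probe sets counted as replication-dependent 3 did not pass. H2bc22 (Hist1h2bp) was at 6.70, 6.32, 6.12 and 6.32 in iTreg, 5.29, 6.01, 5.46 and 4.89 in e_iTreg and 6.55, 5.30, 5.12 and 4.76 in eTreg. Among eTreg arrays only eTreg 1 reached the iTreg range. The difference was 0.93 ± 0.31 against eTreg (limma adjusted p = 0.0727) and 0.96 ± 0.31 against e_iTreg (adjusted p = 0.0599). With single arrays left out, it passed against eTreg in 1 of 12 cases, without eTreg 1 (1.31, limma adjusted p = 0.00182). In the others the adjusted p reached 0.208. Against e_iTreg it passed in 3 of 12 cases. H2bc21 (Hist2h2be) averaged 6.26 ± 0.26 in iTreg, 5.79 ± 0.28 in e_iTreg and 5.88 ± 0.46 in eTreg. Its difference against eTreg was 0.39 (95% interval -0.05 to 0.82). With single arrays left out, it passed in 1 of 12 cases, without eTreg 1 (0.62, limma adjusted p = 0.0252). In the others the adjusted p reached 0.551. H2bc14 (Hist1h2bm) averaged 4.53 ± 0.24 in iTreg, 4.45 ± 0.22 in e_iTreg and 4.51 ± 0.15 in eTreg, with a difference of 0.01 against eTreg (95% interval -0.28 to 0.31).

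Of the 7 H4 probe sets of replication-dependent genes 2 rose, 1 fell and 4 did not pass, with a median log2 difference of -0.01 against eTreg. H4c9 (Hist1h4i) was at 9.45, 9.16, 9.28 and 9.15 in iTreg, 7.27, 8.22, 6.82 and 6.95 in e_iTreg and 8.33, 7.31, 7.29 and 7.07 in eTreg. The iTreg arrays lay close together (SD 0.14) and clear of the rest. It had the smallest adjusted p of the 30 in both contrasts, with 1.76 ± 0.28 against eTreg (3.38-fold, limma adjusted p = 0.00194) and 1.94 ± 0.28 against e_iTreg (adjusted p = 0.00116). H4c12 (Hist1h4k), the brightest of these H4 probe sets, was at 12.75, 12.92, 12.84 and 12.60 in iTreg, 11.88, 12.38, 12.03 and 11.52 in e_iTreg and 12.54, 11.62, 11.63 and 11.47 in eTreg. Only eTreg 1 came near the iTreg range. It rose by 0.96 ± 0.21 against eTreg and 0.83 ± 0.21 against e_iTreg (limma adjusted p = 0.00927 and 0.0207), and these calls were lost in 2 and 7 of 27 settings.

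H4c14 (Hist2h4) went the other way. It was at 7.62, 8.25, 7.21 and 7.88 in iTreg, 8.42, 8.26, 8.96 and 8.53 in e_iTreg and 8.43, 8.79, 7.94 and 9.10 in eTreg. All iTreg arrays were below all e_iTreg arrays, though barely at the closest pair, and they overlapped with eTreg 3. The difference was -0.82 ± 0.24 against eTreg and -0.80 ± 0.24 against e_iTreg (limma adjusted p = 0.045 and 0.0473). These calls were lost in 14 of 27 settings against eTreg and 15 of 27 against e_iTreg, and the sign turned in 0 of them.

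The remaining 4 H4 probe sets were dim, and 0 of them passed. H4c17 (Hist1h4m) averaged 3.82 ± 0.59 in iTreg, 3.33 ± 0.24 in e_iTreg and 3.51 ± 0.11 in eTreg. H4c2 (Hist1h4b) averaged 3.45 ± 0.10 in iTreg, 3.44 ± 0.06 in e_iTreg and 3.46 ± 0.11 in eTreg. H4c8 (Hist1h4h) averaged 3.84 ± 0.60 in iTreg, 3.98 ± 0.36 in e_iTreg and 4.30 ± 0.55 in eTreg and H4c1 (Hist1h4a) 5.22 ± 0.44 in iTreg, 5.11 ± 0.44 in e_iTreg and 5.41 ± 0.26 in eTreg. Their differences against eTreg were 0.31 for H4c17, -0.01 for H4c2, -0.46 for H4c8 and -0.18 for H4c1. The 95% interval ran from -1.08 to 0.16 for H4c8 and from -0.20 to 0.19 for H4c2. The signal of H4c2 was dim on every array, so its narrower interval need not bound a change in its RNA.

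Of the 12 replication-dependent probe sets with a mean log2 value of 6 or above over all arrays, 10 rose and 1 fell against eTreg. Their median difference was 1.62. Of all 23521 probe sets 5.36% rose and 4.63% fell. In a fit of only the 14681 probe sets above 6, 9.3% of all rose. Of the 12 below 6, 3 rose (H1f5, H2bc9 and H2ac12) and the median was 0.35. This mean includes the iTreg arrays, so the split is not independent of the difference: H1f1 lies above 6 only through them, at 7.87 ± 0.50 in iTreg, 5.75 ± 0.74 in e_iTreg and 5.59 ± 0.92 in eTreg. Both gene clusters held members that rose: 10 of 18 probe sets of the Hist1 cluster on chromosome 13 rose, and 3 of 6 of the Hist2 cluster on chromosome 3 rose and 1 fell. Log2 values of different probe sets depend on their own probes, so these levels do not rank the genes by amount of RNA.

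**Figure D3:**
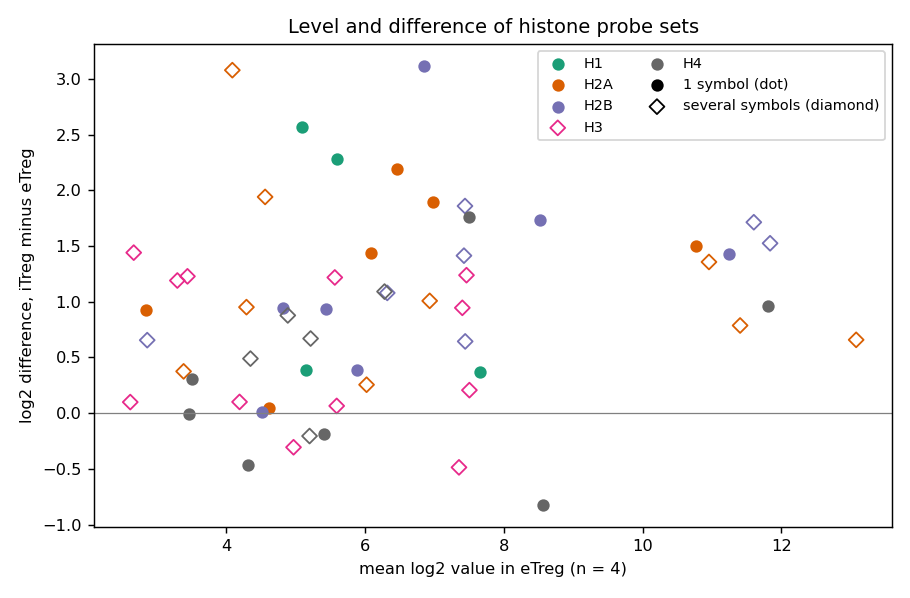
Log2 difference iTreg minus eTreg (y axis) against the mean log2 value in eTreg (x axis, n = 4) for the 24 replication-dependent probe sets with 1 symbol (dots) and the H2A, H2B, H3 and H4 probe sets with several symbols (diamonds), coloured by class. Dots reach from -0.82 (H4c14) to 3.12 (H2bc12), H3 is present as diamonds only, and the dots below 0 on the y axis are all H4 genes.

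The members that are not replication-dependent did not pass. Of the 6, 0 were called in any contrast, and their differences ran from -0.05 to 0.11 against eTreg and from -0.26 to 0.26 against e_iTreg. The testis linker histone H1f6 (Hist1h1t) averaged 4.95 ± 0.12 in iTreg, 5.15 ± 0.33 in e_iTreg and 4.84 ± 0.21 in eTreg. The spermatid histone H1f7 averaged 5.91 ± 0.16 in iTreg, 6.18 ± 0.39 in e_iTreg and 5.88 ± 0.07 in eTreg, and the oocyte histone H1f8 5.66 ± 0.09 in iTreg, 5.81 ± 0.13 in e_iTreg and 5.71 ± 0.10 in eTreg. The testis core histones H2ac1 (Hist1h2aa) and H2bc1 (Hist1h2ba) lie head to head with 281 bases between their starts. H2ac1 averaged 6.34 ± 0.29 in iTreg, 6.50 ± 0.10 in e_iTreg and 6.38 ± 0.27 in eTreg, and H2bc1 2.85 ± 0.28 in iTreg, 2.59 ± 0.13 in e_iTreg and 2.75 ± 0.23 in eTreg. H1f10 averaged 5.97 ± 0.12 in iTreg, 5.97 ± 0.17 in e_iTreg and 5.91 ± 0.03 in eTreg, with a 95% interval of the difference against eTreg from -0.16 to 0.27. H1f0 was not analysed here.

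Histone H3 was measured only through probe sets with several symbols. These rows were tested in a fit of all 41345 rows of the table. Of 35 distinct probe sets 11 rose and 0 fell against eTreg, where 2.68% of all rows rose and 2.37% fell, and 13 rose and 0 fell against e_iTreg, where 3.38% rose and 2.48% fell. Between e_iTreg and eTreg 0 were called, as were 0 of all rows. Their median differences were 0.88 against eTreg and 0.74 against e_iTreg. By class, against eTreg and e_iTreg, 4 and 5 of 12 H3, 4 and 7 of 9 H2A, 2 and 0 of 7 H2B and 1 and 1 of 5 H4 probe sets rose. Without the 3 arrays low in B cell markers, with only eTreg 1 and eTreg 2 kept in eTreg, 0 rose in either contrast. With the marker covariate 1 and 4 rose, and without the 3 arrays with the signal of 1 sex 1 and 0 rose. The share of all 41345 rows that rose was not computed for the alternative fits. Among probe sets with 1 symbol it fell from 5.36% and 6.49%. It was 0.897% and 3.75% without the arrays low in B cell markers, 2.34% and 4.53% with the covariate, and 2.93% and 3.18% without those of 1 sex. Leaving out 1 array at a time gave 3 (without eTreg 2) to 17 (without eTreg 1) against eTreg, and 3 (without e_iTreg 3 or e_iTreg 4) to 16 against e_iTreg.

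The H3 probe set with the smallest adjusted p against eTreg, 17285821, is annotated to H3c1, H3c11, H3c10 and H3c8. Its signal was dim, with a mean of 3.23 over all arrays. It was at 4.02, 3.98, 4.41 and 4.00 in iTreg, 2.99, 3.51, 2.66 and 2.52 in e_iTreg and 2.99, 2.57, 2.26 and 2.83 in eTreg, with iTreg above all other arrays. It rose by 1.44 ± 0.22 against eTreg and 1.18 ± 0.22 against e_iTreg (limma adjusted p = 0.00561 and 0.0111). A brighter one with the same 4 symbols, 17285680, was at 8.78, 8.76, 8.84 and 8.42 in iTreg, 7.56, 8.06, 7.07 and 7.30 in e_iTreg and 7.90, 7.15, 7.58 and 7.21 in eTreg. Its iTreg arrays too were above the rest, by 1.24 ± 0.22 against eTreg and 1.20 ± 0.22 against e_iTreg (limma adjusted p = 0.00979 and 0.0106). Another with these symbols, 17291233, was at 6.86, 7.34, 6.14 and 7.13 in iTreg, 6.66, 7.03, 5.93 and 6.41 in e_iTreg and 7.08, 7.81, 6.97 and 7.55 in eTreg, and its groups overlapped. It differed by -0.49 ± 0.29 against eTreg (limma adjusted p = 0.439). The remaining one with these symbols, 17291008, was dim too and averaged 4.48 ± 0.64 in iTreg, 3.16 ± 0.41 in e_iTreg and 3.29 ± 0.49 in eTreg. It differed by 1.19 ± 0.32 against eTreg, with overlapping arrays, and rose by 1.32 ± 0.32 against e_iTreg (limma adjusted p = 0.0566 and 0.0353).

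The largest difference among probe sets with several symbols was that of 17285867, which lists 10 H2A symbols, H2ac4 first. It was at 7.52, 7.18, 7.59 and 6.37 in iTreg, 4.56, 6.01, 3.08 and 3.15 in e_iTreg and 6.12, 4.12, 3.63 and 2.47 in eTreg. The e_iTreg and eTreg arrays spread widely (SD 1.39 and 1.53), and the highest of them stayed below iTreg 4. It rose by 3.08 ± 0.75 against eTreg and 2.96 ± 0.75 against e_iTreg (limma adjusted p = 0.036 and 0.0401). Probe set 17400545, shared by H2ac18, H2ac19 and H2ac20, averaged 13.74 ± 0.13 in iTreg, 12.99 ± 0.35 in e_iTreg and 13.08 ± 0.31 in eTreg. It differed by 0.66 ± 0.18 against eTreg and 0.75 ± 0.18 against e_iTreg (limma adjusted p = 0.0602 and 0.0336). Near-identical copies can share probes, so the value of a single histone gene may include RNA of other copies.

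The same arrays stood high throughout. The mean of the 24 replication-dependent probe sets was 7.47, 7.51, 7.40 and 7.08 in iTreg, 6.38, 6.84, 6.25 and 5.88 in e_iTreg and 7.03, 6.36, 6.14 and 5.98 in eTreg. The iTreg arrays were above all others, and eTreg 1 lay only just below iTreg 4. The mean of 23 DNA replication genes was 9.50, 9.20, 9.57 and 9.07 in iTreg, 8.27, 8.61, 7.97 and 7.79 in e_iTreg and 8.63, 8.11, 8.09 and 7.75 in eTreg. The mean of 19 mitosis genes was 9.90, 9.34, 9.77 and 8.82 in iTreg, 7.88, 8.47, 6.86 and 6.62 in e_iTreg and 8.36, 7.24, 7.01 and 6.49 in eTreg. In all 3 means eTreg 1 and e_iTreg 2 were the highest of their groups and iTreg 4 the lowest of its group. The same 2 arrays had the highest B cell marker means, 8.01 on e_iTreg 2 and 8.11 on eTreg 1. The part of B cells in these values was not tested beyond the marker covariate and the left-out arrays given above. The 3 means come from the same arrays and share their RNA input and sorting.

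**Figure D4:**
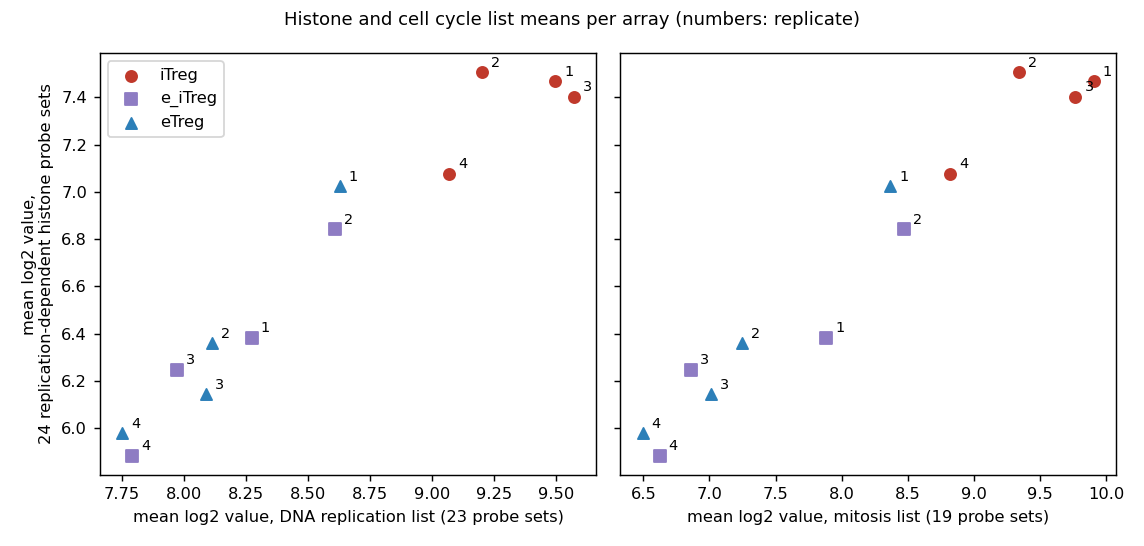
Mean log2 value of the 24 replication-dependent histone probe sets (y axis) against the mean of 23 DNA replication genes (left) or 19 mitosis genes (right) on each of the 12 arrays, numbered by replicate. The iTreg arrays lie at the top between 7.08 and 7.51 on the y axis, and eTreg 1 and e_iTreg 2 (6.84) lie between them and the other 6 arrays.

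Genes of S phase and mitosis rose in the same contrasts, where 5.36% of all probe sets rose against eTreg and 6.49% against e_iTreg. Of 23 DNA replication genes 22 rose against eTreg and 21 against e_iTreg, with Cdc45, part of the replicative helicase, at 1.71 ± 0.23 against eTreg (limma adjusted p = 0.000719) and Mcm3, another subunit of it, at 1.33 ± 0.19 (adjusted p = 0.0012). Of 19 mitosis genes 19 rose in both contrasts, among them the checkpoint kinases Ttk (1.95 ± 0.30 against eTreg, limma adjusted p = 0.00165) and Bub1 (2.25 ± 0.39, adjusted p = 0.00266). Without the 3 arrays low in B cell markers 9 of 23 and 1 of 19 rose against eTreg, and 18 and 17 against e_iTreg. Only eTreg 1 and eTreg 2 were then left in eTreg, and 0.897% and 3.75% of all probe sets rose in the 2 contrasts.

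Of 22 genes measured that transcribe and process histone messages, 5 rose and 1 fell against eTreg and 8 rose and 1 fell against e_iTreg. Of all probe sets 5.36% and 6.49% rose and 4.63% and 4.75% fell. The median differences of the 22 were 0.08 and 0.16. Without the 3 arrays low in B cell markers 1 and 4 rose, beside 0.897% and 3.75% of all probe sets. Leaving out 1 array at a time gave 2 to 6 and 3 to 8. Slbp, which binds the stem-loop, was at 10.10, 9.83, 9.91 and 9.64 in iTreg, 9.51, 9.61, 9.08 and 9.17 in e_iTreg and 9.68, 9.32, 9.12 and 8.99 in eTreg. Its iTreg arrays were above all e_iTreg arrays and overlapped with eTreg 1. It rose by 0.59 ± 0.16 against eTreg and 0.53 ± 0.16 against e_iTreg (limma adjusted p = 0.0274 and 0.0445).

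Cyclin E and its kinase Cdk2 switch on histone transcription through the coactivator Npat. Ccne1, which encodes cyclin E1, was at 9.08, 8.77, 9.20 and 8.50 in iTreg, 7.72, 7.94, 7.63 and 7.22 in e_iTreg and 7.82, 7.58, 7.30 and 7.25 in eTreg, with iTreg above all other arrays. It rose by 1.39 ± 0.18 against eTreg and 1.26 ± 0.18 against e_iTreg (limma adjusted p = 0.000623 and 0.00102), and Cdk2 by 0.77 ± 0.12 and 0.82 ± 0.12 (adjusted p = 0.00141 and 0.001). Npat was at 9.36, 9.0, 9.30 and 9.18 in iTreg, 8.55, 8.84, 8.86 and 8.91 in e_iTreg and 9.26, 9.14, 9.14 and 9.29 in eTreg. Its iTreg and eTreg arrays overlapped, and the e_iTreg arrays were the lowest. The difference was 0.00 ± 0.11 against eTreg (limma adjusted p = 0.995) and 0.42 ± 0.11 against e_iTreg (adjusted p = 0.0213), and that of e_iTreg against eTreg, -0.42 ± 0.11, did not pass (adjusted p = 0.704).

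Of the parts that form the 3′ end, Cpsf2, a subunit of the cleavage complex, rose by 0.62 ± 0.15 against eTreg and 0.83 ± 0.15 against e_iTreg (limma adjusted p = 0.0175 and 0.00367), and the cap-binding subunit Ncbp2 by 0.36 ± 0.10 and 0.38 ± 0.10 (adjusted p = 0.0305 and 0.0233). Lsm10, of the U7 particle that guides the cut, had 0.36 ± 0.15 against eTreg (limma adjusted p = 0.153) and rose by 0.48 ± 0.15 against e_iTreg (adjusted p = 0.0478). Its partner Lsm11 had 0.07 ± 0.10 and 0.13 ± 0.10 and did not pass. Casp8ap2 (FLASH), which joins the U7 particle, had 0.30 ± 0.14 and 0.39 ± 0.14 (adjusted p = 0.215 and 0.0917). Eri1, an exonuclease that trims the stem-loop end, had 0.32 ± 0.12 against eTreg (adjusted p = 0.138) and rose by 0.51 ± 0.12 against e_iTreg (limma adjusted p = 0.0165).

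Tut4, a terminal uridylyltransferase, was the 1 gene of this group that fell. It was at 9.66, 9.33, 9.38 and 9.36 in iTreg, 10.004, 9.88, 9.96 and 10.34 in e_iTreg and 9.99, 10.03, 10.53 and 10.25 in eTreg. All iTreg arrays were below all other arrays. The difference was -0.77 ± 0.14 against eTreg and -0.61 ± 0.14 against e_iTreg (limma adjusted p = 0.00292 and 0.0103).

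Several histone chaperones that serve replicating DNA rose. Of 19 chaperones measured, 8 rose against eTreg and 10 against e_iTreg, beside 5.36% and 6.49% of all probe sets. Without the 3 arrays low in B cell markers 3 and 6 rose, beside 0.897% and 3.75%. Mcm2 counts both here and among the DNA replication genes. Of the 3 subunits of CAF-1, which places H3 and H4 on new DNA, 2 rose: Chaf1a by 1.51 ± 0.24 against eTreg and 1.45 ± 0.24 against e_iTreg (limma adjusted p = 0.00173 and 0.00202) and Chaf1b by 1.12 ± 0.19 and 1.33 ± 0.19 (adjusted p = 0.0023 and 0.00102). The other subunit, Rbbp4, had 0.25 ± 0.10 and 0.31 ± 0.10, its arrays overlapped and it did not pass (limma adjusted p = 0.162 and 0.0641). Asf1b, the form of Asf1 linked to dividing cells, was at 10.43, 10.27, 10.32 and 9.68 in iTreg, 8.63, 9.42, 7.76 and 7.85 in e_iTreg and 9.34, 8.36, 7.86 and 7.18 in eTreg. The iTreg arrays were above all other arrays. It rose by 1.99 ± 0.40 against eTreg and 1.76 ± 0.40 against e_iTreg (limma adjusted p = 0.00604 and 0.0119), while its paralog Asf1a had 0.16 against eTreg (adjusted p = 0.39). Against eTreg, the helicase subunit Mcm2 rose by 1.06 ± 0.16, Hat1, which acetylates new H4, by 0.79 ± 0.16 and Nasp, which binds soluble H3 and H4, by 0.67 ± 0.18 (limma adjusted p = 0.00123, 0.00515 and 0.0256). Hira, which places H3.3 outside replication, had 0.12 (adjusted p = 0.572).

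Of 8 replacement variants measured, 2 rose in both contrasts, beside 5.36% of all probe sets against eTreg and 6.49% against e_iTreg. Without the 3 arrays low in B cell markers 1 rose in each, beside 0.897% and 3.75%. Leaving out 1 array at a time gave 1 to 2, with 1 in 8 of 12 cases against eTreg and in 5 of 12 against e_iTreg. H2ax, the H2A form phosphorylated at DNA breaks, was at 12.40, 12.17, 12.39 and 11.74 in iTreg, 10.49, 11.12, 9.94 and 9.77 in e_iTreg and 11.21, 10.02, 9.93 and 9.31 in eTreg. No array of the other groups reached iTreg 4. It rose by 2.06 ± 0.34 against eTreg and 1.85 ± 0.34 against e_iTreg (limma adjusted p = 0.00216 and 0.00381). Cenpa, the centromeric H3, rose by 0.50 ± 0.15 and 0.53 ± 0.15 (adjusted p = 0.0436 and 0.0295). H2az1 and H2az2, the H2A.Z forms, had 0.25 ± 0.11 and 0.33 ± 0.15 against eTreg (limma adjusted p = 0.185 and 0.202). H3f3a and H3f3b, the H3.3 genes, were not analysed here.

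**Figure D5:**
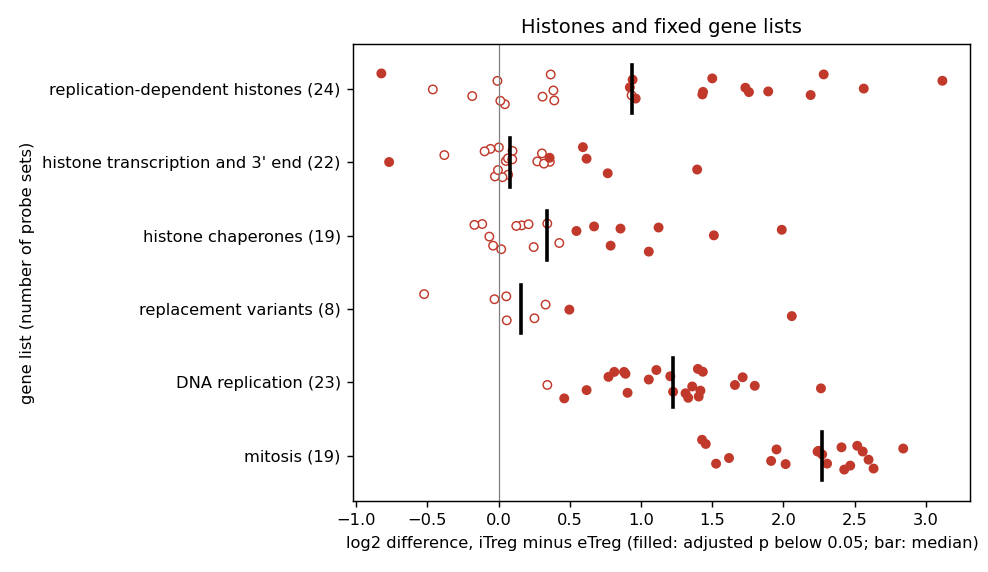
Log2 difference iTreg minus eTreg (x axis) of each probe set by gene group (rows), filled where limma's adjusted p was below 0.05, with a bar at the median; the vertical scatter within a row carries no value. The median is 0.94 for the 24 replication-dependent histones, 0.08 for message processing, 0.34 for chaperones and 2.27 for mitosis.

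A few histone genes with older Hist names now carry other symbols and so lay outside the selection, and they were read for comparison. H2bu1-ps (Hist3h2bb) was at 5.80, 6.0, 5.70 and 6.16 in iTreg, 3.82, 5.13, 4.84 and 4.81 in e_iTreg and 5.13, 5.61, 4.54 and 4.34 in eTreg. Its iTreg arrays were above all other arrays. It rose by 1.01 ± 0.28 against eTreg and 1.26 ± 0.28 against e_iTreg (limma adjusted p = 0.0306 and 0.00929). H4f16 (Hist4h4) had 2 probe sets that disagreed: 17548561 rose by 1.78 ± 0.42 against eTreg (limma adjusted p = 0.0144) and had 1.35 ± 0.42 against e_iTreg (adjusted p = 0.0519), with overlapping arrays in both contrasts, and 17472159 had 0.16 ± 0.17 against eTreg. H2aw (Hist3h2a) had -0.10 ± 0.13 and H2af-ps2 (Hist1h2al) 0.35 ± 0.20 against eTreg, and neither passed.

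All promoters in the RefSeq table were searched for ATTTGCAT, CCAAT and TATAAA in the 250 bases before the start, on both strands. The table held a window for 27 of the 29 genes. The octamer was in 4 of 6 replication-dependent H2B promoters, 2 of 5 H2A, 0 of 4 H1 and 0 of 6 H4, 6 of 21 in all (28.6%), against 1.6% of all 32851 windows. The windows of H2bc12 and H2ac12 overlap, and the 1 octamer in each is the same site. It counts for both genes here and among the genes that rose, as do CCAAT matches in the overlap. CCAAT was in 16 of 21 (76.2%), the 5 without it being H4 promoters, against 33.8% of all windows. TATAAA was in 11 of 21 (52.4%) against 12.4%. Among genes that rose against eTreg, 5 of 13 held the octamer, 11 held CCAAT and 8 held TATAAA, and among those that did not rise 1, 5 and 3 of 8. Of the printed genes H2bc12 and H2bc18 rose and H2bc14 did not pass, though all 3 hold the octamer. These matches of letters were not tested against the differences.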

How the data were processed

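RNA from 12 samples in 3 groups of 4 was read on Affymetrix mouse arrays, 1 array per sample. The values are log2 expression values per probe set, deposited by the authors; they were made by RMA in the oligo package per the submitters' processing notes, with versions not given in the sources used here. Gene symbols came from the platform annotation, updated through the supplied gene tables. Near-identical histone copies can share probes, and rows with several symbols were kept apart.

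The deposited values were fitted as they stand with limma 3.58.1 in R 4.3.3, as 1 model of 3 groups with eBayes and no covariate, and p-values were adjusted by Benjamini-Hochberg over the 23521 rows with 1 symbol; rows with several symbols were tested in a fit of all 41345 rows. A call is an adjusted p below 0.05. The fit had 9 residual degrees of freedom and a median SE of a difference of 0.121; precision is set by the number of arrays, and the p-values reflect only variation among these samples. The fit was tested on simulated data in which each row varied independently, so that test does not cover rows that vary together by array. The text names members past the threshold, the brightest of each class, germ cell members and genes with several probe sets, and from the other lists a set of genes chosen by role and up to 4 further ones with the smallest p against eTreg. Outside this rule the remaining members, Ncbp2, Asf1a, Asf1b, Rbbp4, Nasp, Hira and the marker genes were named after their values were seen. The members and lists were chosen with earlier results of these data known. Alternatives were other scalings, filters, rows, priors and thresholds, array weights, a replicate block, a marker covariate, and leaving out single arrays or the 3 low in B cell markers; leaving out the 3 arrays with the signal of 1 sex, and all alternatives for the rows with several symbols and the other lists, were chosen after seeing the data. Promoters are RefSeq windows of GRCm38.p6.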

Additional observations from a re-analysis of the deposited data

Results flagged for a closer look

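Among 114 sets of 4 arrays (each member, and the mean of each histone or cell cycle list, in each group), 6 held an array far from the other 3 by Dixon's test, where chance gives about 1 in 20. H1f5 on iTreg 4 was at 6.94, below the others at 7.81 to 7.94. H1f10 on iTreg 2 was at 5.78, below the others at 6.02 to 6.04. H4c1 on e_iTreg 1 was at 4.45, below the others at 5.27 to 5.42, and H4c8 on e_iTreg 4 was at 3.44, below the others at 4.10 to 4.19. On eTreg 1, H2bc21 was at 6.57, above the others at 5.62 to 5.66, and H4c12 was at 12.54, above the others at 11.47 to 11.63.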

How the results depend on the processing

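With all arrays, 13 of 30 histone probe sets were higher and 1 lower in iTreg than in eTreg, and likewise against e_iTreg. The number higher against eTreg came to 2 without the 3 arrays low in B cell markers, with only eTreg 1 and eTreg 2 kept in that group. There 0.897% of all probe sets rose. With the marker covariate the number came to 6, where 2.34% of all probe sets rose. The number lower was 0 in both contrasts under quantile normalization, all rows tested, the trend and robust prior, on leaving out those 3 arrays and under that covariate; it was 0 against eTreg with only the compared groups fitted, and 0 against e_iTreg under median centring and without the 3 arrays with the signal of 1 sex. The cause was not tested. Leaving out each array gave 10 to 15 higher against eTreg and 9 to 14 against e_iTreg, with 0 to 1 lower in both. Both filters on dim probe sets raised the median difference to 1.5 against eTreg and 1.41 against e_iTreg, by removing dim members. They used the mean over all arrays, iTreg included, so these medians are not independent of the difference. With the replicate number as a block, 14 were higher and 1 lower in each iTreg contrast, and 0 in e_iTreg against eTreg. Of all probe sets 5.12% were then higher against eTreg and 6.12% against e_iTreg. Same-numbered arrays shared only a number: the correlations of their deviations ran from -0.152 to 0.238, with 3 of 12 over 0.1. Over the 30 members, the contrasts and all alternatives run, 2207 single tests kept their side of the threshold, 99 lost a call and 13 gained one, and 0 called differences changed sign. The 2207 include differences not called with all arrays, among them all of e_iTreg against eTreg, so they do not measure how stable the calls were. By single call, the losses ran from 0 of 27 settings (the brighter H2ac21 probe set) to 15 of 27 (H4c14 against e_iTreg).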
